A study of Mus musculus with 8 samples.

Results

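Long intergenic noncoding RNAs (lincRNAs) are transcripts of their own genes, lying between protein-coding genes, that are not annotated to be translated. Here the well-expressed ones were described in injured mouse spinal cord. The genes were chosen by their measured counts: a gene was included if the deposited table gave its biotype as lincRNA and its raw read count averaged at least 50 over the 8 libraries. Imprinted genes on a list of names were left out, which removed 2 of 116 genes, H19 and Meg3. This gave 114 of the 5559 lincRNA genes in a table of 54532 genes. Since the counts chose the genes, their abundance is a description and was not tested, whereas the rule did not use their difference between genotypes. Earlier results of these data were known when the genes were chosen. The 3 genes just inside the limit were C130083M11Rik and Ftx, each at a mean of 50.875 counts, and 3222401L13Rik at 50.25 counts. The 3 just outside it were D230017M19Rik at 49.5, Gm10635 at 49.125 and Celrr at 48.75 counts.

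RNA-seq was done on injured spinal cord collected 7 days after injury. The control group, labelled Tia1f/f, held 4 samples of mice with floxed Tia1 alleles and no Cre in their name, and the CKO group, labelled Tia1Nestin-CKO, held 4 samples of mice whose name describes Tia1 loss limited by a Nestin-driven recombinase. Nestin is active in neural stem and progenitor cells, so that blood, immune, vascular and connective tissue cells of the same cord would mostly keep the gene. Which cells lost the gene, including those descended from such progenitors, was not measured. The age, sex and strain of the mice were not given in the sources used here, all mice were injured, and the labels do not say that each sample came from a separate mouse, so the p-values measure only the spread between these samples.

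Some lincRNAs build structures in the nucleus, others bind proteins or microRNAs in the cytoplasm, and others serve mainly as hosts from whose introns or exons microRNAs and small nucleolar RNAs are cut. Malat1 collects in nuclear speckles, where splicing factors are stored, and Neat1 is the scaffold of paraspeckles, which hold RNA-binding proteins in the nucleus. TIA1 binds RNA, prefers stretches of U, regulates splicing and gathers in stress granules. Several, such as Miat and the hosts of miR-124, are known mainly from neurons. In bulk samples, fewer cells of a type and less RNA per cell cannot be told apart.

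Sequences are shown for the lincRNAs whose known partner can be read from the transcript. The first set comes from Norad, a cytoplasmic lincRNA listed as 2900097C17Rik and known for binding the Pumilio proteins. Its longest GENCODE M21 transcript (GRCm38, chromosome 2, minus strand) holds 11 copies of the Pumilio motif TGTANATA, which was searched on the transcript strand only. These are 3 of the 11, with the motif in capitals, 5′ to 3′, at transcript positions 651 to 658, 1147 to 1154 and 1336 to 1343.
Norad element 1: gtcctgTGTATATAatatga
Norad element 2: acatgcTGTAAATAcctttt
Norad element 3: tttcttTGTACATAgtgtat
Together, Norad was the 1 gene among the 114 with 10 or more motifs, which 4 of 14632 tested protein-coding genes with a transcript (0.0273%) also reached. At least 1 motif was found in 30.7% of the 114 genes, in 21.8% of the 294 other lincRNA genes that passed the low-count filter and in 31.4% of the protein-coding genes. These shares depend on length, and the median transcripts had 2250.5, 1776 and 3442 bases in the same order. Per kb there were 0.176, 0.140 and 0.1225 motifs.

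The next set shows the microRNA miR-7 and its site in Oip5os1, listed as 1700020I14Rik and also called Cyrano, which in mouse brain is known to bring about the decay of miR-7. The seed of the microRNA (bases 2 to 8) is in capitals in the first line, which is the RefSeq sequence (GRCm38.p6). In the second line, from transcript positions 2935 to 2959 (GENCODE M21), capitals mark the bases that pair with the microRNA.
mmu-miR-7a-5p: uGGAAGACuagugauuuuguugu
Oip5os1 site: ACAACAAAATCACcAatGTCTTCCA
Of the 23 bases of the microRNA, 22 pair at this site: the first base, the 7 of the seed and 14 of the 15 bases beyond it, with 2 unpaired bases of the transcript in between. The transcript holds 2 matches to the seed in all.

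The third set shows the microRNAs encoded within the lincRNA genes. On their own strand, 8 of the 114 genes hold 11 microRNA hairpins of the RefSeq table, and Mir124-2hg, described below, overlaps a further hairpin gene by the deposited annotation. Gm3764 (chromosome 3), C130071C03Rik (chromosome 13) and Mir9-3hg (chromosome 7) each hold a copy of miR-9, a microRNA of neural progenitors, and both mature strands are the same from all 3 genes. The other hairpins shown are let-7d in 6720427I07Rik (chromosome 13) and miR-135a in Rmst (chromosome 10). Seeds are in capitals, and these 4 seeds differ from each other.
mmu-miR-9-5p: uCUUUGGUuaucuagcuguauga
mmu-miR-9-3p: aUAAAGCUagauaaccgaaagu
mmu-let-7d-5p: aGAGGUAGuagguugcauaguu
mmu-miR-135a-5p: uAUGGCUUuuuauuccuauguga

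The last set shows stretches of T in Malat1 and Neat1, since TIA1 prefers U-rich RNA. Each line is the window of 60 bases that holds the most bases in runs of TTTTT or longer, which are in capitals. The windows lie at transcript positions 2761 to 2820 and 3557 to 3616 (GENCODE M21, chromosome 19, minus strand).
Malat1: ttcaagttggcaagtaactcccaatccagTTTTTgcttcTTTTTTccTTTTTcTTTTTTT
Neat1: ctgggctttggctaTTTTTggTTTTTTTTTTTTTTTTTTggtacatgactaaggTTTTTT
Over whole transcripts, such runs came at 2.29 per kb in the 114 genes, at 1.62 per kb in the 294 other lincRNA genes and at 1.69 per kb in protein-coding genes. The median GC content of the 114 longest transcripts was 45.7%, against 47.5% in the other lincRNA genes and 49.8% in protein-coding genes. A motif match is a description of the letters and does not show that a protein or microRNA was bound there.

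Total counts were 14752733 to 17802884 per library, and the 114 genes took 32405 to 46586 of them, or 0.189% to 0.275%. The library labelled control 1 stood apart. It had counts in 18884 genes, against 22434 to 23414 in the other 7. There, 14.9% of the 114 genes lay more than 1 log2 unit from their median over the other 7, against 13.5% of all genes tested. In the other libraries, 0.877% to 4.39% of the 114 genes did. The library labelled control 2 had the highest neuron level, the mean log2 CPM of 18 neuron markers relative to each marker's mean over the libraries, at 0.76, while the other 3 controls ran from -0.39 to 0.07 and the CKO libraries from -0.32 to 0.07. None of the 18 neuron markers was at 0 counts in any library.

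The targeted gene did not separate the groups. Tia1 had a normalized CPM, read counts per 1e+06 after scaling, of 41.9, 24.4, 31.3 and 34.2 in control 1 to 4 and of 23.4, 27.8, 24 and 32.1 in CKO 1 to 4. The groups overlapped, and the log2 fold change of CKO over control was -0.29 ± 0.19 (SE, n = 4 per group), with an unadjusted p of 0.144 by edgeR. An exact two-sided permutation test over the 70 assignments gave p = 0.20, where the smallest possible value is 0.0286. Counts over the whole gene do not tell a transcript that lacks an exon from an intact one.

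The 114 genes lay on 20 chromosomes. Expression was uneven: the median gene had a mean of 101 counts, 57 genes reached 100 counts and 7 reached 1000. The 4 most counted genes, Norad, Oip5os1, Neat1 and 6330403K07Rik, held 40.5% to 55.5% of the counts of the 114 genes in a library. Per length, the deposited FPKM (reads scaled by gene length and library size) averaged 0.377 to 125 over the libraries, with a median of 2.27. Gm10076, a short gene that RefSeq lists as a pseudogene, was highest at 125 FPKM, followed by 6330403K07Rik at 107 and Norad at 94.5, while Neat1 stood at 7.96 and Malat1 at 4.95 FPKM. The lowest was C230004F18Rik at 0.377 FPKM, a gene with an annotated length of 24030 bases. RefSeq (GRCm38.p6) matched 93 of the 114 by name, of which 82 were lncRNA genes, 9 were protein-coding and 2 were pseudogenes. The protein-coding ones included 6330403K07Rik and 1810058I24Rik, so a lincRNA biotype in the deposited table does not mean noncoding in every annotation. No gene overlapped 64 of the 114, while 34 were overlapped on the opposite strand and 31 on the same strand, some of them on both. Strand would not part partners on the same strand, and the library kit and the counting are not stated here to keep it. Reads of partners on either strand thus cannot be told apart.

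**Figure D1:**
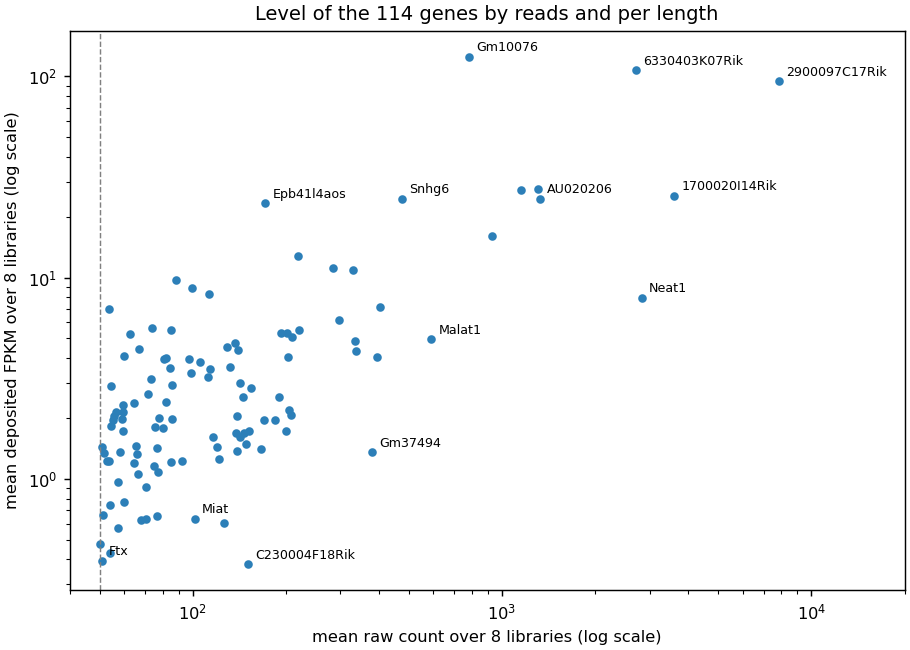
Mean raw count (x, log scale) against mean deposited FPKM (y, log scale) over 8 libraries for the 114 lincRNA genes, 1 point per gene; the dashed line marks the mean count of 50 that chose them. Long genes such as Neat1 and C230004F18Rik lie low for their read number, and the short gene Gm10076 lies highest at 125 FPKM.

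Between genotypes, no lincRNA gene passed the test. All 114 passed the low-count filter, and edgeR's quasi-likelihood test with Benjamini-Hochberg adjustment over 16537 genes called 0 of them and 0 genes in all (0% of those tested); 234 genes in all had an unadjusted p under 0.05. At an unadjusted p under 0.05, 4 of the 114 had a lower level in CKO, Malat1, Mir124-2hg, A330102I10Rik and Snhg20, where 0.919% of all genes did. None had a higher level, where 0.496% of all genes did. Over all genes, fewer had such a p than a threshold of 0.05 gives by chance, so these shares are low marks. Whether 4 of 114 is more than chance gives was not tested. The counts of the 114 depended on single libraries. Without control 3 they were 13 lower and 1 higher, where 1104 of 16823 genes in all had an unadjusted p under 0.05. Without control 4 there were 2 lower, where 380 of 16805 genes in all did. Without control 2 or CKO 4 there was 1 lower, where 218 of 16810 and 221 of 16849 genes in all did. None was higher in the last 3 fits. The values of all 4 CKO libraries lay below all 4 controls in 1 of the 114 genes, Malat1, where 0.49% of all genes did, and above them in 1, Snhg12, where 0.701% of all genes did.

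Most of the fitted differences of the 114 were small and leaned to the CKO-lower side. The log2 fold change was negative in 73 genes and positive in 41, with a median of -0.15, a middle range of -0.30 to 0.10 and extremes of -1.0 and 0.62. Of the other lincRNA genes, 169 of 294 were negative, with a median of -0.10, and over all genes tested 51.9% were negative, with a median of -0.01. The libraries labelled control 1 and control 2 had the highest median levels of the 114 genes, 0.24 and 0.19 log2 units above the genes' means. The other 6 libraries ran from -0.22 to 0.04. Without control 1 the median log2 fold change of the 114 was -0.04, and without control 2 it was -0.06. Without both it was 0.04, with 50 of the 114 negative, whereas without control 3, the lowest, it was -0.23. Leaving out both was chosen after the data were seen. Leaving out the highest controls raises the median by construction, so this is a description and not a test. Markers of several cell types leaned to 1 side in the fit or varied between libraries. Of 18 neuron markers, 16 had a negative fitted log2 fold change, with a median of -0.23. Oligodendrocyte markers, 6 of 10 negative with a median of -0.11, had levels of 0.51, 0.16, -0.57 and -0.05 log2 units in control 1 to 4 and -0.19 to 0.12 in CKO libraries. Astrocyte markers, 7 of 10 negative with a median of -0.11, had levels of 0.26, 0.10, -0.42 and 0.17 in control 1 to 4 and -0.14 to 0.10 in CKO libraries. Both lists were thus highest in control 1 and lowest in control 3. Other lists ran differently: the neuron level of control 1 was 0.07. Skeletal muscle, fibroblast and pericyte and smooth muscle markers were highest in control 3, at 2.26, 0.76 and 0.67. Ependymal markers were negative in 6 of 6 and Schwann cell markers in 7 of 8, while neutrophil and proliferation markers were positive in 10 of 10 each, with medians of 0.65 and 0.34. Endothelial markers were positive in 8 of 10 and oligodendrocyte precursor markers in 6 of 7, with medians of 0.38 and 0.10. The neutrophil level was -0.95 in control 4 and 1.34 in CKO 2, but -0.35 and -0.22 in CKO 3 and CKO 4. The proliferation level was lowest in control 1 and control 2, at -0.52 and -0.47. None of these markers passed the test, and their part in the lincRNA result was not tested. A single gene's direction was the same in the full fit and in every fit with 1 library left out for 42 genes lower in CKO and 19 higher.

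**Figure D2:**
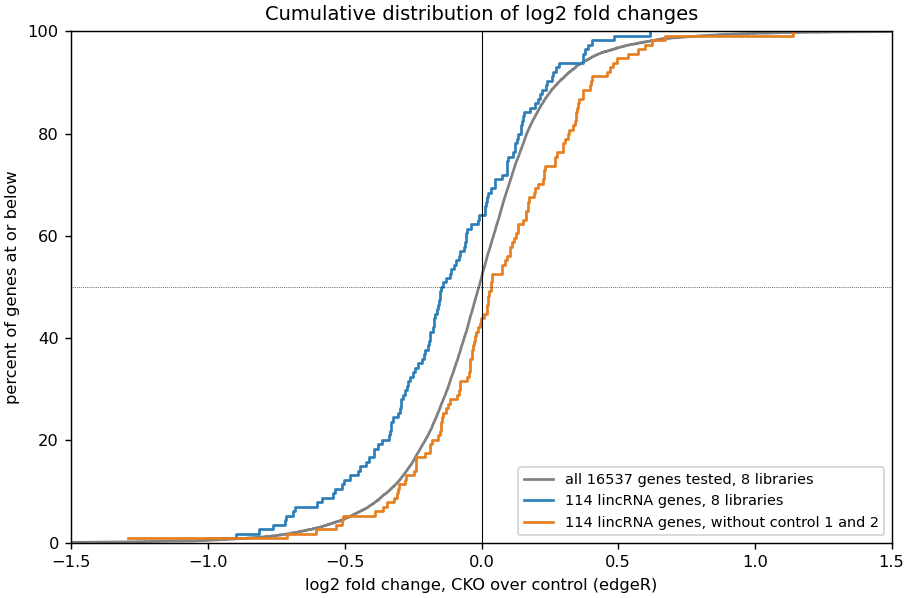
Cumulative share of genes (y, percent) by log2 fold change of CKO over control (x, edgeR) for all 16537 genes tested, for the 114 lincRNA genes with 8 libraries, and for the 114 without control 1 and control 2. With all libraries, 73 of the 114 lie left of 0. Without those 2 controls, an omission chosen after the data were seen, 50 do.

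**Figure D3:**
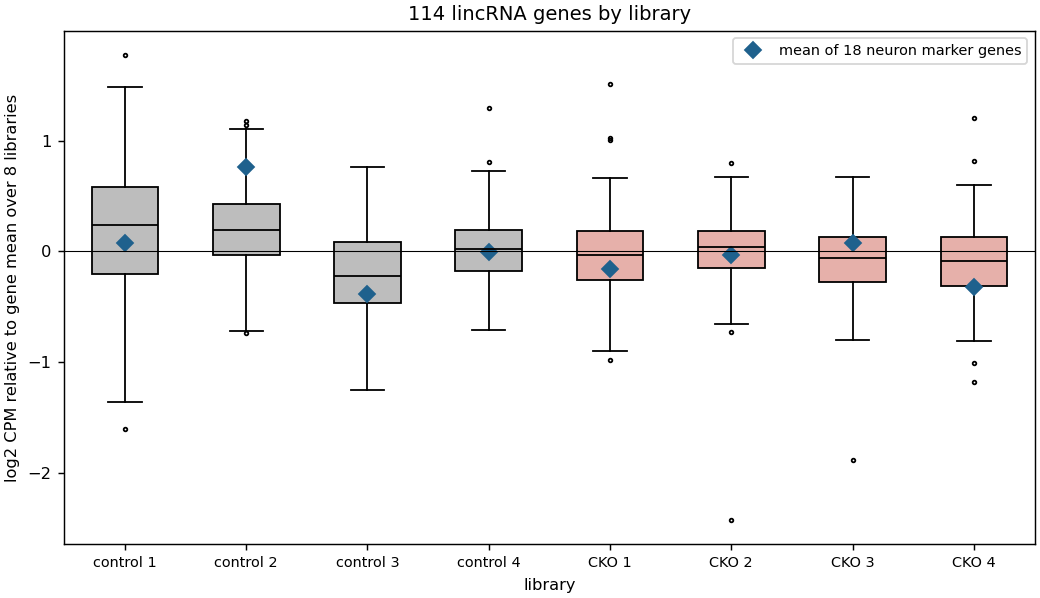
Levels of the 114 lincRNA genes in each library as log2 CPM relative to each gene's mean over 8 libraries (y); boxes show the median and quartiles, whiskers reach 1.5 box lengths at most, small circles are genes beyond them, and diamonds are the mean of 18 neuron markers. Control 1 has the widest box and a median of 0.24, and control 2 the highest neuron level, 0.76.

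The replicate libraries differed more in these genes than in most. The median SD of log2 CPM within groups was 0.40 for the 114 genes, 0.44 for the other lincRNA genes and 0.31 for all genes tested. This SD depends on read number, the sets were not matched by count, and the part of read number was not tested. The library with the highest level exceeded the one with the lowest by a median of 2.36-fold. The steadiest genes were 1810058I24Rik, 1700096K18Rik and Epb41l4aos, with SDs of 0.12, 0.13 and 0.15 log2 units. The least steady were 1700063D05Rik at 1.28, Gm36161 at 1.05, Gm10076 at 0.88, A330074K22Rik at 0.84 and Gm42047 at 0.81 log2 units. 1700063D05Rik had 70, 35, 32 and 33 counts in control 1 to 4 and 145, 1, 72 and 63 in CKO 1 to 4. Its lowest and its highest value were thus both in CKO libraries.

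Of the RNAs of nuclear bodies, Malat1 gave the largest log2 fold change below 0 of the 114. Malat1 (chromosome 19, GRCm38 positions 5795690 to 5802672, minus strand) had a normalized CPM of 35.5, 36.9, 35.0 and 78.9 in control 1 to 4 and of 21.2, 27.1, 23.4 and 21.4 in CKO 1 to 4. All 4 CKO libraries were below all 4 controls, and control 4 stood far above the other controls. The means were 46.5 ± 21.6 and 23.3 ± 2.75 CPM (SD, n = 4 each), a log2 fold change of -1.0 ± 0.26 (SE, 95% interval -1.58 to -0.42). The unadjusted p by edgeR was 0.00316 and the adjusted p was 1.00, so the difference did not pass over all genes. The exact permutation test gave p = 0.0286, the smallest that 70 assignments allow. Without control 4 the log2 fold change was -0.62, and with any other single library left out it was -1.11 to -0.96. The noncoding entries Gm20417 and Gm37376 overlap Malat1 on the plus strand and Gm27694 on its own strand, and their reads cannot be told from its own. How the counting treated reads that lie in more than 1 gene is not given here. The Malat1 counts may therefore not hold all of its reads.

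Neat1, whose gene is the neighbour of Malat1 (chromosome 19, positions 5824708 to 5845478, minus strand), did not separate the groups. It had 4.79 times as many counts as Malat1 on average, over a longer gene. This ratio is of the reads assigned to each entry, with the limit given for Malat1. Its normalized CPM was 114, 188, 177 and 252 in control 1 to 4 and 158, 187, 136 and 123 in CKO 1 to 4. Control 1 was the lowest library of all and control 4 the highest. The log2 fold change was -0.27 ± 0.23 (SE, n = 4 per group, 95% interval -0.78 to 0.23), with an unadjusted p of 0.258 by edgeR and an exact permutation p of 0.40. Without control 4 it was -0.08, and without control 1 it was -0.44 with an unadjusted p of 0.0312 by edgeR. Miat, a lincRNA of the nucleus also called Gomafu and known from neurons, had 3.13, 10.1, 6.44 and 9.02 CPM in controls and 5.51, 3.34, 5.54 and 4.51 CPM in CKO libraries. The groups overlapped through control 1, the lowest of the 8, and the log2 fold change was -0.60 ± 0.34 (SE), unadjusted p = 0.107 by edgeR.

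The mRNAs of proteins that work with these RNAs gave no call either. Of 18 paraspeckle proteins, 6 had a negative and 12 a positive fitted log2 fold change, with a median of 0.05. The smallest p-values were those of Fam98a (log2 fold change -0.27), Tardbp (-0.17), Smarca4 (0.22) and Taf15 (0.25), and none was under 0.05 before adjustment. Of 22 nuclear speckle proteins, 16 were negative and 6 positive, with a median of -0.15. Clk1, a kinase that phosphorylates splicing factors, had 64.4 ± 11.8 CPM in controls and 45.5 ± 8.86 in CKO (SD, n = 4 each), log2 fold change -0.50 ± 0.18 (SE), unadjusted p = 0.0196 and adjusted p = 1.00 by edgeR. The splicing factor Srsf3 followed at -0.31 ± 0.16 (SE), and on the positive side Srrm1 stood at 0.15 and Ddx39b at 0.19. The speckle list's mean level was 0.21 log2 units above average in control 1 and -0.13 to 0.03 in the other libraries, and without control 1 its median log2 fold change was -0.07. Of 13 listed factors of nuclear RNA decay, which degrade unstable noncoding RNAs, 12 were tested, 8 negative and 4 positive, with a median of -0.02. Exosc9 (-0.34), Zcchc7 (-0.25), Exosc10 (0.17) and Elac2 (0.18) had the smallest p-values in each direction.

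**Figure D4:**
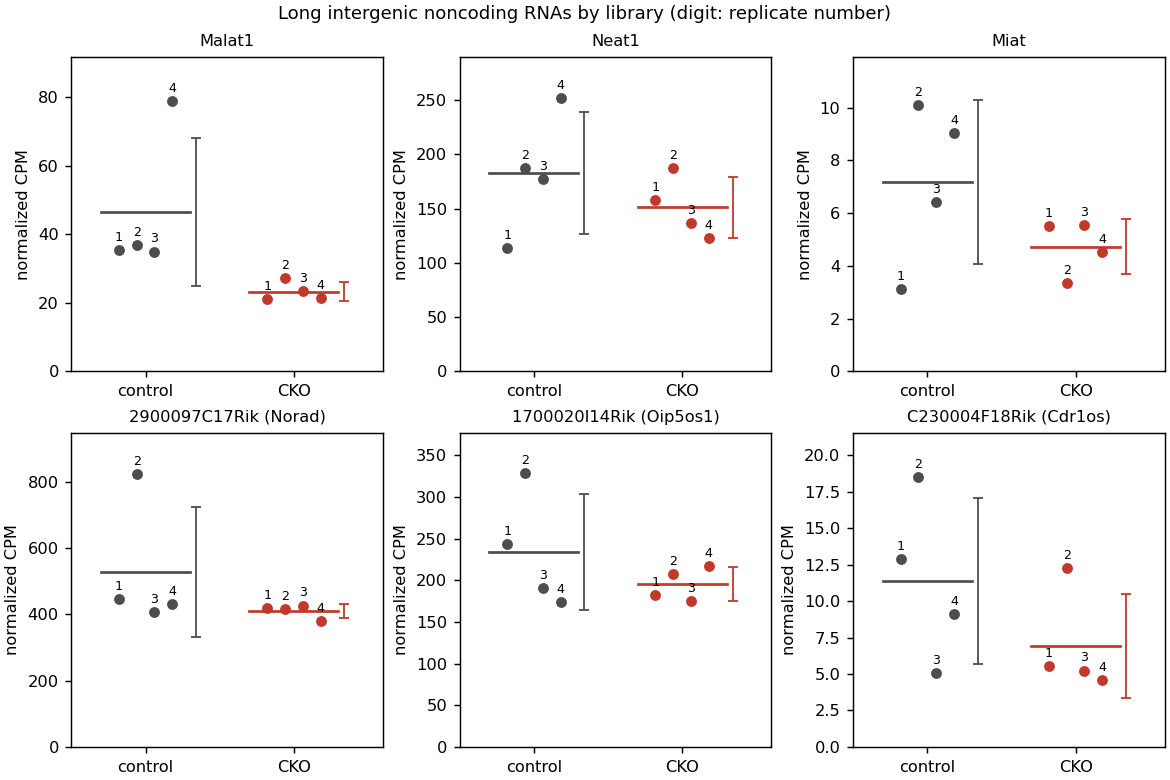
Normalized CPM (y) in each library of control and CKO for the nuclear RNAs Malat1, Neat1 and Miat and the long lincRNAs Norad, Oip5os1 and Cdr1os; points carry the replicate number, lines are means and bars are 1 SD (n = 4). The groups do not overlap for Malat1, where control 4 is at 78.9, and overlap for the other 5.

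Norad (chromosome 2, positions 156388065 to 156392979, minus strand), the lincRNA with the most reads, was nearly level in 7 of the 8 libraries. Its normalized CPM was 447, 822, 408 and 432 in control 1 to 4 and 420, 415, 426 and 378 in CKO 1 to 4. Control 2 was far above the rest. This library also had the highest neuron level, and a link between them was not tested. The log2 fold change was -0.36 ± 0.22 (SE, n = 4 per group), unadjusted p = 0.131 by edgeR, and it came within -0.46 and -0.04 in every alternative fit. Norad is known to hold Pumilio proteins away from their targets, and its 11 elements gave 2.24 motifs per kb against 0.176 per kb over the 114 genes.

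Oip5os1 (chromosome 2, positions 119594297 to 119607502, plus strand), the lincRNA with the miR-7 site, had 243, 328, 191 and 174 CPM in control 1 to 4 and 182, 207, 175 and 217 CPM in CKO 1 to 4. Control 1 and control 2 were the highest libraries, and the other controls lay within or just below the CKO range of 175 to 217 CPM. The log2 fold change was -0.26 ± 0.20 (SE), unadjusted p = 0.223 by edgeR, and without those controls together it was 0.09. C230004F18Rik, which RefSeq calls Cdr1os (chromosome X, positions 61116378 to 61292484, plus strand), is the locus from which the circular RNA Cdr1as, a binder of miR-7, is made, and gene counts do not tell the circle from linear RNA. It was named after its values were seen. Its normalized CPM was 12.9, 18.5, 5.05 and 9.13 in controls and 5.57, 12.3, 5.24 and 4.62 in CKO libraries. The groups overlapped, with control 2 again highest, and the log2 fold change was -0.72 ± 0.41 (SE), unadjusted p = 0.111 by edgeR. Without control 2 it was -0.38, without control 1 and control 2 together it was -0.04, and without CKO 2 it was -1.14.

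The 3 hosts of miR-9 had similar means in both groups, and none passed the test. Gm3764 (chromosome 3, positions 88206813 to 88229959, plus strand), named after its values were seen, had 5.42, 16.8, 10.5 and 19 CPM in controls and 15.9, 12, 11.9 and 6.26 in CKO libraries. C130071C03Rik (chromosome 13, positions 83721381 to 83884194, plus strand) had 19.2, 11.4, 5.10 and 11.5 CPM in controls and 13.4, 11.2, 10.5 and 7.27 in CKO libraries. Mir9-3hg (chromosome 7, positions 79500026 to 79534403, plus strand) had 10.6, 10.3, 9.49 and 16.1 CPM in controls and 16.9, 10.2, 12 and 4.40 in CKO libraries. The groups overlapped widely in all 3, control 1 was lowest of the controls for Gm3764 and highest for C130071C03Rik, and CKO 4 was the lowest of the CKO libraries in each. The log2 fold changes were -0.17 ± 0.38, -0.15 ± 0.34 and -0.09 ± 0.35 (SE) in the same order, and their unadjusted p by edgeR was 0.663, 0.673 and 0.791. These are levels of the host transcripts, and mature microRNAs were not measured.

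Mir124-2hg (chromosome 3, positions 17789921 to 17808970, plus strand) overlaps the hairpin gene of miR-124, a microRNA of neurons. Its normalized CPM was 14.4, 11.7, 5.55 and 9.99 in control 1 to 4 and 7.48, 5.77, 6.69 and 5.75 in CKO 1 to 4. Except for control 3, the lowest of the 8, the controls were above all CKO libraries. The means were 10.4 ± 3.71 and 6.42 ± 0.83 CPM (SD, n = 4 each), the log2 fold change was -0.69 ± 0.27 (SE), the unadjusted p was 0.029 and the adjusted p was 1.00 by edgeR. Control 3 also had the lowest neuron level, -0.39, and the part of the neuron markers in this difference was not tested. Ftx, a lincRNA near the X inactivation centre that holds miR-421 and miR-374b, had 3.20 ± 0.547 CPM in controls and 2.82 ± 1.41 in CKO (SD, n = 4 each). Rmst, a lincRNA of neural differentiation, had 3.82 ± 1.47 and 2.62 ± 0.62 CPM, log2 fold change -0.54 ± 0.33 (SE).

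Of 21 listed hosts of small nucleolar RNAs, 5 were among the 114, and they did not move together: 2 had a negative and 3 a positive log2 fold change. These genes carry the guide RNAs of ribosomal and spliceosomal RNA modification in their introns. By the deposited annotation, 4 of the 5 hold a small nucleolar RNA gene. Snhg20 holds none, but holds Gm26083, a small Cajal body RNA gene, and the microRNA gene Mir6516. Snhg12 (chromosome 4, positions 132308623 to 132311024, plus strand) had 7.58, 11.8, 11.3 and 12.3 CPM in control 1 to 4 and 17.2, 12.9, 13.1 and 12.5 CPM in CKO 1 to 4. All 4 CKO libraries were above all 4 controls, though CKO 4 exceeded control 4 by little. The means were 10.7 ± 2.15 and 13.9 ± 2.19 CPM (SD, n = 4 each), with a log2 fold change of 0.37 ± 0.20 (SE) and an unadjusted p of 0.0946 by edgeR. Scaled by the total of protein-coding genes, its groups overlapped. Snhg20 (chromosome 11, positions 117076008 to 117078955, plus strand) had 9.87, 10.3, 8.66 and 11.3 CPM in controls and 5.62, 10.1, 6.21 and 5.81 CPM in CKO libraries. CKO 2 lay among the controls and the other 3 CKO libraries below them, and the log2 fold change was -0.54 ± 0.23 (SE), unadjusted p = 0.0394 and adjusted p = 1.00 by edgeR. Snhg6 had 29.7 ± 9.51 and 27.4 ± 5.07 CPM, Snhg18 15.8 ± 6.19 and 17.5 ± 5.47, and Epb41l4aos 9.82 ± 1.45 and 10.5 ± 0.495 in control and CKO (SD, n = 4 each).

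**Figure D5:**
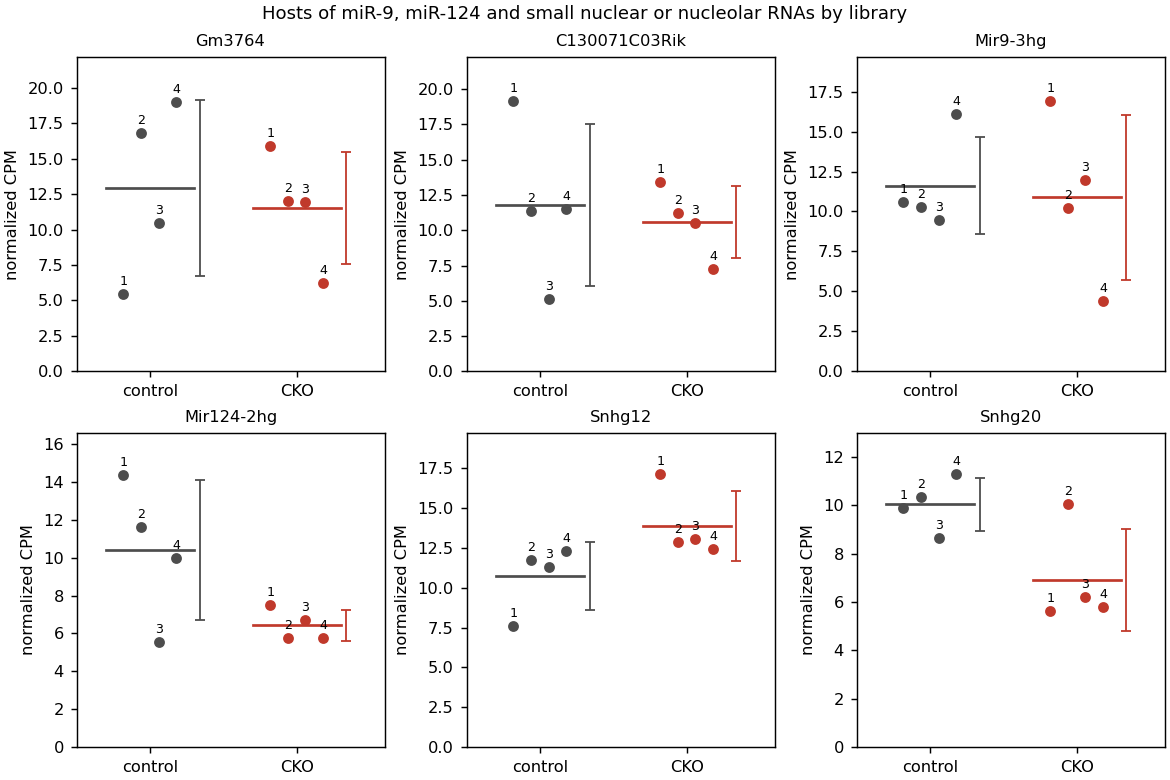
Normalized CPM (y) in each library for the miR-9 hosts Gm3764, C130071C03Rik and Mir9-3hg, for Mir124-2hg and for the small RNA hosts Snhg12 and Snhg20; points carry the replicate number, lines are means and bars are 1 SD (n = 4). Snhg12 shows groups that do not overlap, and Snhg20 does but for CKO 2 at 10.1.

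Of the other lincRNAs, A330102I10Rik and Gm1976 were next by p on the CKO-lower side. A330102I10Rik (chromosome 13, positions 29014399 to 29040336, plus strand) had 5.01, 5.59, 1.78 and 4.71 CPM in controls and 2.53, 1.8, 2.77 and 2.03 CPM in CKO libraries. Control 3 was the lowest of all 8 and the other controls the highest, as in Mir124-2hg. The log2 fold change was -0.90 ± 0.36 (SE), unadjusted p = 0.0304 by edgeR. Its nearest protein-coding gene, Sox4, a transcription factor of neural progenitors, lay 60686 bp away and had a log2 fold change of 0.20. Gm1976 had 8.01 ± 2.1 CPM in controls and 5.62 ± 0.52 in CKO (SD, n = 4 each), log2 fold change -0.51 ± 0.23 (SE), unadjusted p = 0.0517 by edgeR. Mettl4, a methyltransferase gene 10052 bp away, stood at a log2 fold change of -0.51 with an unadjusted p of 0.0714 by edgeR.

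On the CKO-higher side no gene but Snhg12 had an unadjusted p under 0.1. Pantr1, which lies 926 bp from the neural transcription factor gene Pou3f3 on the opposite strand, had 3.75, 6.54, 2.50 and 5.56 CPM in controls and 7.70, 7.38, 5.97 and 4.68 in CKO libraries. The groups overlapped, the log2 fold change was 0.49 ± 0.31 (SE), unadjusted p = 0.15 by edgeR, and Pou3f3 stood at -0.10. 1810058I24Rik, which RefSeq lists as protein-coding with the synonym Stmp1, was the steadiest gene, at 72.6 ± 7.39 CPM in controls and 82.0 ± 5.04 in CKO (SD, n = 4 each), log2 fold change 0.18 ± 0.13 (SE). 1700096K18Rik had a log2 fold change of 0.27 ± 0.20 and AC165953.2 of 0.38 ± 0.30 (SE). The protein-coding gene Scaf8 overlaps AC165953.2 on the same strand and stood at 0.21, and reads in the overlap cannot be told apart.

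In each of the following other genes, chosen for abundance, spread or a known role, the group means differed by less than 1 SD of the controls. 6330403K07Rik had 153 ± 46.7 CPM in controls and 170 ± 39.9 in CKO, AU020206 had 78.9 ± 31.3 and 79.9 ± 11.0, and Tmem250-ps had 69.3 ± 13.7 and 66.8 ± 7.94 (SD, n = 4 each). Gm20300 had 92.2 and 79.5 CPM in control 1 and 2 and 36.8 to 56.7 CPM in the other 6 libraries. Gm10076 had 139, 36.9, 34.8 and 29.6 CPM in controls and 27.3, 70.6, 26.2 and 25.5 in CKO libraries. It was thus high in control 1 and CKO 2, 1 library of each group, while the other 6 lay between 25.5 and 36.9 CPM. Gm26917, a lincRNA entry that resembles ribosomal RNA, had 25.6 ± 6.88 and 22.4 ± 4.49 CPM. Pvt1, the neighbour of Myc, had 9.13 ± 1.74 and 10.7 ± 1.29 CPM, Dubr 21.8 ± 8.12 and 18.9 ± 2.19, and Lockd, downstream of the cell cycle inhibitor gene Cdkn1b, 3.22 ± 1.55 and 3.45 ± 2.10 (SD, n = 4 each).

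The neighbouring protein-coding genes gave no call. The median distance from one of the 114 genes to its nearest protein-coding gene was 7170 bp, and 89 had one within 50 kb, of which 73 neighbours were tested. Of these, 52 had a negative and 21 a positive log2 fold change, with a median of -0.09, and without control 1 the negative ones numbered 38. In 22 genes the neighbour started within 1 kb on the opposite strand. All 22 of those neighbours were tested, and 14 had the same sign of log2 fold change as their lincRNA. Frmd8, 4224 bp from Neat1, stood at a log2 fold change of 0.09, where Neat1 stood at -0.27.

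Runs of TTTTT or longer were compared between the lincRNAs on either side of 0. They came at 2.45 per kb in the 73 genes with a negative log2 fold change, with a median of 2.01 per kb over genes, and at 1.76 per kb in the 41 with a positive one, with a median of 1.40. The median transcript of the first group was longer, 2695 against 1731 bases. Since the side of 0 did not hold in every fit with 1 library left out for many of these genes, this is a description with no test.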

How the data were processed

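Raw read counts per gene, deposited by the authors for 54532 mouse genes and 8 libraries, were the main data; they ranged from 14752733 to 17802884 in total per library. The FPKM values deposited by the authors were used for levels per length and as an alternative. Per the submitters' processing notes, the tools were HISAT2 2.0.5 and featureCounts 1.5.0-p3, besides CASAVA 1.8, fastp and DESeq2 1.20.0. The notes also name the build GRCh38, but the deposited tables hold mouse identifiers, and 109 of the 114 genes have the GRCm38 coordinates of GENCODE M21. TRIzol was used for total RNA and a NEBNext Ultra kit for the libraries, per the labels' protocols; poly(A) selection and strandedness are not stated there.

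Genes were kept by filterByExpr (minimum count 10, minimum total 15), scaled by TMM factors and tested with edgeR 4.0.16 (glmQLFTest, robust) in R 4.3.3, with genotype as the only term and Benjamini-Hochberg adjustment over 16537 genes at 0.05. Counts per 1e+06 with TMM-scaled library sizes are called normalized CPM, and levels use log2 CPM with 0.5 added. SE was derived from the log2 fold change and its F value, with 95% intervals. Malat1, Neat1 and Tia1 also had an exact permutation test of CPM. Alternatives were DESeq2 size factors and its Wald test (1.42.0), protein-coding scaling, other filters, limma 3.58.1 (voom on counts, trend on log2 of FPKM plus 1 or 0.1), the replicate block and leaving out libraries. The edgeR fit was also tested on simulated data of 16284 genes, with 10 false calls. It recovered 10% of genes changed 1.5-fold, 46.9% of those changed 2-fold, 74.5% at 3-fold and 91.7% at 4-fold. In such data, changes of 2-fold or less were thus often missed. Replicates differed beyond sampling noise, so none was counted as duplicated.

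The lincRNA genes, gene lists and tests were chosen with earlier results of these data known. Named genes were Malat1, Neat1 and Tia1, the 10 highest by count and by FPKM, the 5 of smallest p per direction with their neighbours, those in lists of known roles, those nearest the limit of 50 counts, the least and most steady, and the 2 of smallest p per direction in the protein lists; others were chosen after their values were seen. Some genes that this rule names are not reported here.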

Additional observations from a re-analysis of the deposited data

Results flagged for a closer look

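In a group of 4 libraries, a highest or lowest value was flagged when its gap to the next was, as a share of the group's range, above Dixon's 95% limit; chance flags about 1 group in 20. Of the 228 groups (114 genes in 2 genotypes), 17 were flagged, 6 of them through control 1, 3 each through control 4 and CKO 2, 2 each through control 2 and control 3, and 1 through CKO 1. Among genes named above, Norad was at 822 CPM in control 2, Gm10076 at 139 CPM in control 1 and, in the other group, at 70.6 CPM in CKO 2, Malat1 at 78.9 CPM in control 4 and Snhg12 at 17.2 CPM in CKO 1. Mir9-3hg was at 16.1 CPM in control 4, Snhg20 at 10.1 CPM in CKO 2, 1700063D05Rik at 4.87 CPM in control 1 and Ftx at 2.39 CPM in control 3, the last being the low value of its group.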

How the results depend on the processing

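In all alternatives, no lincRNA gene passed the adjusted threshold, and Malat1 kept a negative log2 fold change, between -1.29 and -0.62. The DESeq2 Wald test called 1 gene in all, Saa3, which is not a lincRNA; at an unadjusted p under 0.05 edgeR gave 234 genes and DESeq2 466. With each library left out in turn, the genes whose groups do not overlap numbered 1 to 11 on the CKO-lower side and 1 to 3 on the CKO-higher side; with 3 libraries in a group this happens more often by construction. The share over all genes is not given for these omissions, so the counts cannot be read as a result about the lincRNA genes. The lower count was 11 without control 3, 4 without control 1 or CKO 2, and 2 without control 2 or CKO 3; the higher count was 3 without control 4 and 2 without control 3 or CKO 2. It was 0 on the CKO-higher side when scaled by protein-coding genes. Over the same omissions the nuclear RNA decay median ran from -0.090 to 0.022. Without control 1 and control 2 together, an alternative chosen after seeing the data, the median of the 114 was 0.036. There, 6 genes did not overlap on the lower and 4 on the higher side, again without a share over all genes. With a mean count of at least 100, 41 of 57 genes were negative, fewer because fewer entered; as a share this was 71.9%, against 64.0% of the 114. Same-numbered libraries did not deviate together (correlations -0.09, 0.04, -0.10 and -0.38), so the numbers do not pair them; with the replicate block 0 genes were called, 72 of the 114 were negative, their median was -0.11 and Malat1 stood at -0.91. The lowest count behind a value was 1, for 1700063D05Rik in CKO 2.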

Other observations

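BC002059 and AC129328.1, lincRNA genes less than 1 Mb apart on chromosome 17 (GRCm38 positions 16951539 to 16974157 and 17234872 to 17266063, both on the plus strand), shared a split within the CKO group. They were chosen after their values were seen. BC002059 had 133, 126, 132 and 121 counts in control 1 to 4 and 57, 134, 60 and 136 in CKO 1 to 4. AC129328.1 had 93, 75, 86 and 61 counts in controls and 47, 114, 40 and 107 in CKO libraries. In both genes CKO 1 and CKO 3 were the lowest of the 8 libraries, while CKO 2 and CKO 4 lay above all controls by raw count. By normalized CPM, BC002059 had 3.21, 8.60, 3.62 and 7.67 CPM in CKO 1 to 4 and 6.87 to 9.25 CPM in controls, and AC129328.1 had 2.64, 7.31, 2.41 and 6.03 CPM in CKO 1 to 4 and 3.46 to 6.47 CPM in controls.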
